A study of Mus musculus with 4 samples.

Results

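The 45 genes described here encode the machinery and the control of DNA replication in S phase. They were picked by gene symbol, with earlier results of these data known, from 48795 genes in a table of RNA sequencing read counts, and they were sorted into 10 roles that follow the steps of replication. All 45 were matched to 1 Ensembl gene each. The cells were bone marrow-derived macrophages of C57BL/6 mice, primary cells grown from marrow for 5 days in 10% fetal bovine serum with 50 ng/ml of M-CSF, the cytokine on which macrophages depend for survival and proliferation. One group of 2 libraries came from cells transfected with 50 nM of siRNAs against IRF2, and the other of 2 libraries from cells given 50 nM of a control siRNA. RNA was taken from both groups 48 h after transfection. IRF2 binds the promoters of interferon-responsive genes, mostly as a repressor of transcription, and the siRNAs direct the degradation of its mRNA. The labels name the IRF2 siRNAs in the plural and give neither their number nor their sequences. Nothing in them shows that the replicates are separate cultures or mice. The p-values therefore rest on differences between these libraries alone, which may be technical.

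Replication begins when the origin recognition complex, with CDC6 and CDT1, loads the MCM helicase onto DNA in G1. In S phase, CDC45 and the GINS complex join the MCM ring to form the active helicase, polymerases copy both strands behind it, and the PCNA clamp, loaded by replication factor C, holds them on the template. The mRNAs of many of these factors are made in late G1 under control of E2F transcription factors and are most abundant in cycling cells. In bulk RNA, fewer cells in S phase and less mRNA per cell cannot be told apart.

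Libraries held 26378584 and 26895100 reads in genes with IRF2 siRNA, and 29862296 and 32273565 with control siRNA. Irf2 was at 56.0 and 56.1 CPM (reads relative to the library's total in tested genes, scaled by TMM) in the IRF2 siRNA libraries, against 163.9 and 151.6 CPM in the control libraries, a log2 fold change of −1.49 ± 0.11 (SE). Between libraries of a group, the median absolute log2 difference over all genes tested was 0.14 with IRF2 siRNA and 0.25 with control siRNA. The 13 macrophage genes examined, among them Csf1r, the M-CSF receptor, summed to 41257 and 39131 CPM with IRF2 siRNA and 44088 and 39816 CPM with control siRNA, and none was called. The 8 stem and progenitor markers summed to 0.642 and 0.734 CPM with IRF2 siRNA and 1.41 and 1.44 CPM with control siRNA. Of these, only Cd34 had enough reads to test, with 4 and 7 reads in the IRF2 siRNA libraries and 19 and 26 in the control libraries (edgeR adjusted p = 0.168). The 10 neutrophil and granule genes summed to 12.0 and 14.7 CPM with IRF2 siRNA and 10.8 and 11.4 CPM with control siRNA, with Retnlg at 0 throughout. Summed markers of lymphoid, erythroid, dendritic and mast cells were each under 6 CPM in every library, with Gzma, Hbb-bt, Fcer1a, Mcpt8 and Ms4a2 at 0, and 8 stromal genes summed to 42.6 and 46.9 CPM with IRF2 siRNA and 40.8 and 40.7 CPM with control siRNA. For 8 of 10 mitochondrially encoded mRNAs tested, both IRF2 siRNA libraries lay below both controls, against 19.4% of all genes. None of the 10 was called. The mitochondrially encoded mRNAs summed to 18896 and 19087 CPM with IRF2 siRNA and 26047 and 21260 CPM with control siRNA. The part of any of these in the results was not tested.

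With IRF2 siRNA, most of the replication genes lay slightly below their control level. The helicase activation factor Mcm10 and the ribonucleotide reductase subunit Rrm2 fell, and no member rose, by the edgeR quasi-likelihood test with an adjusted p under 0.05 over all 13495 genes tested. All 45 members had enough reads to test. These 2 were 4.44% of the members, while 1.79% of all genes tested were called, 1.27% lower and 0.511% higher. The log2 fold change was below 0 for 42 of 45 members, against 50.3% of all genes, and both IRF2 siRNA libraries lay below both control libraries for 31 of 45, against 19.4% of all genes. None had both IRF2 siRNA libraries above both controls, against 19% of all genes. At an unadjusted p under 0.05, 16 members were lower and none higher, against 7.33% and 3.61% of all genes. The median log2 fold change of the members was −0.29, and that of all genes tested −0.0015. The summed level of the 45 was 816.2 and 791.0 CPM with IRF2 siRNA and 1008.6 and 975.5 CPM with control siRNA. The number of members called was 13 without control replicate 1 and 15 without control replicate 2, where 7.39% and 7.67% of all genes fell, and 2 and 1 without IRF2 siRNA replicates 1 and 2, where 1.21% and 1.23% of all genes fell. With 1 control library left, the spread in the fit comes from the IRF2 siRNA pair alone, which lay closer together than the control pair. Counts from fits without a control library do not check the calls made with all 4 libraries. The cause of the higher counts was not tested. DESeq2 called 7 members, all lower, where 2.52% of all genes fell.

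**Figure D1:**
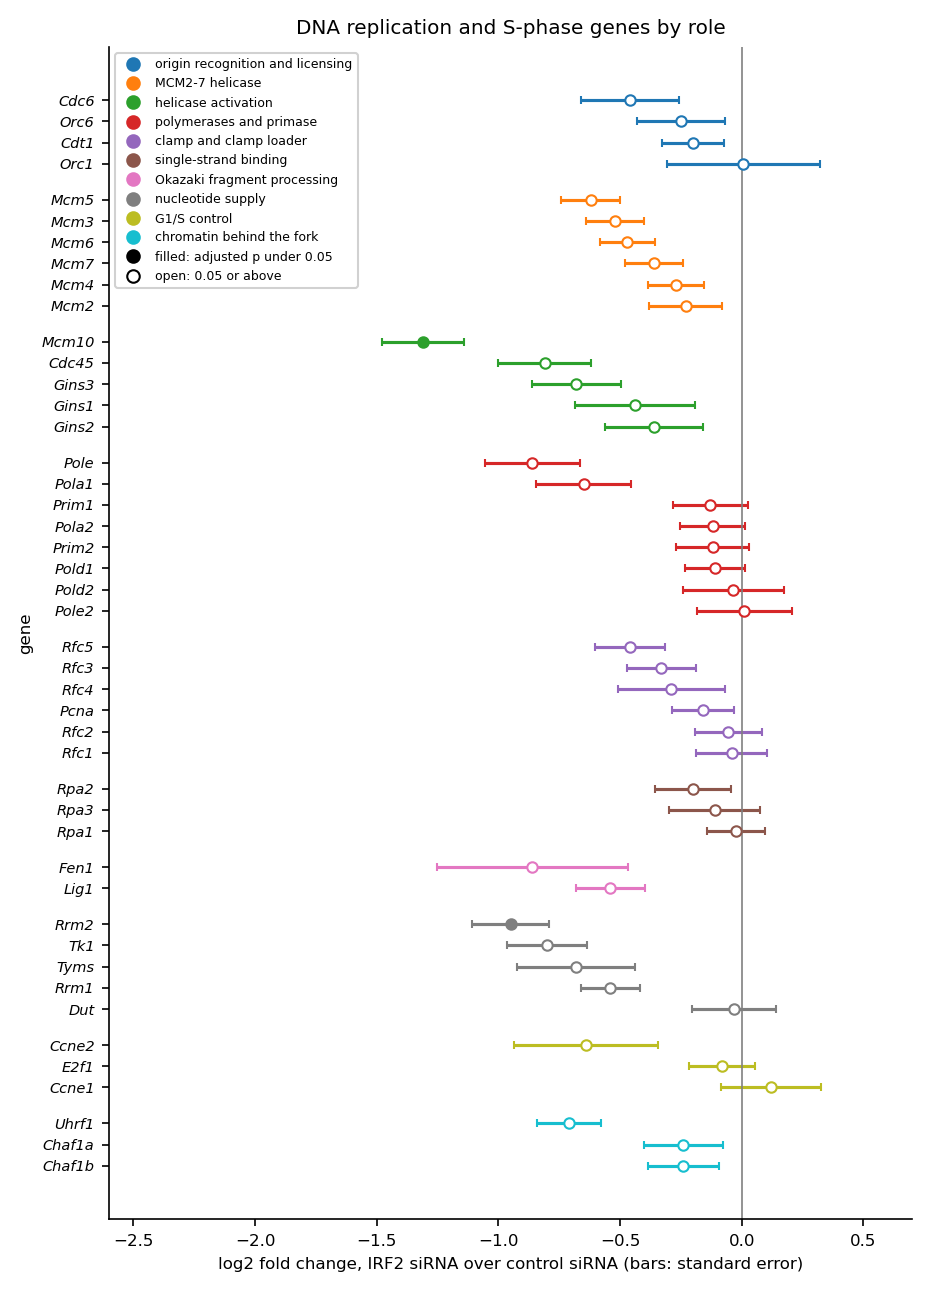
Log2 fold change of each of the 45 genes, IRF2 siRNA over control siRNA (x axis), with its standard error as a bar, grouped by role. Filled points are the 2 genes with an adjusted p under 0.05, Mcm10 at −1.31 and Rrm2 at −0.95, and the points of 42 genes lie left of 0.

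The promoters of the members were searched for short words of cell cycle control. RefSeq (GRCm38.p6) gave the sequence from 250 bases before to 50 bases after a transcription start for 38 of the 45 members. The E2F site was searched as the 4 words TTTCCCGC, TTTCGCGC, TTTGCCGC and TTTGGCGC on both strands, counting a gene once if any of its windows held a word. It was found in 14 of 38 members (36.8%), in 2.6% of all 27025 genes with a window, and in 4.75% of those among them that were tested here. The 14 were Mcm3, Mcm5, Mcm6 and Mcm7 of the helicase ring, the licensing genes Orc1, Cdc6 and Cdt1, the activation gene Gins3, the polymerase genes Pola1, Pold1 and Pole2, and Rfc3, Lig1 and Uhrf1. The CCAAT box, the site of the factor NF-Y, was found as CCAAT on either strand in 60.5% of members, 41.1% of all genes and 42.9% of those tested. The cell cycle homology region, searched as TTTGAA or TTCGAA, was found in 7 members (18.4%), in 21.7% of all genes and in 16.6% of those tested. It was in 22 of 28 promoters of the G2 and mitosis list described below (78.6%), where an E2F word was in 3 (10.7%). A CCAAT box was in 23 of those 28 (82.1%), a higher share than among the members. Members with an E2F word had a median log2 fold change of −0.47 (n = 14, from −0.71 to 0.011) and those without one −0.23 (n = 24, from −1.31 to 0.12), ranges that overlap. The nearest RefSeq start lay within 100 bases of the gene's 5′ end in the annotation for 30 of the 38, and up to 539 bases away, for Mcm7. Of the 8 beyond 100 bases, 4 had no E2F word, among them E2f1 and Dut, whose starts lay 466 and 325 bases inside the gene. In Lig1 and Uhrf1, the E2F word was in the window of another start, further from the 5′ end, and the nearest window held none. A word match is a description of the sequence and not evidence of binding. The 250 bases before the start are given for the 2 genes that fell, Mcm10 (chr2:5012792-5013041, minus strand) and Rrm2 (chr12:24708004-24708253, plus strand), and for Mcm5 (chr8:75109259-75109508, plus strand) and Mcm6 (chr1:128359706-128359955, minus strand), whose E2F words lie close together. Capitals mark E2F words and CCAAT boxes on either strand.
Mcm10: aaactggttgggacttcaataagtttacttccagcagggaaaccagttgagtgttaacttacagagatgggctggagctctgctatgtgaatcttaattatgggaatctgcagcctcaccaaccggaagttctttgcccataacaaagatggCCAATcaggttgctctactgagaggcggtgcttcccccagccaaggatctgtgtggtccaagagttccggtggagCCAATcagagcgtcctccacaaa
Rrm2: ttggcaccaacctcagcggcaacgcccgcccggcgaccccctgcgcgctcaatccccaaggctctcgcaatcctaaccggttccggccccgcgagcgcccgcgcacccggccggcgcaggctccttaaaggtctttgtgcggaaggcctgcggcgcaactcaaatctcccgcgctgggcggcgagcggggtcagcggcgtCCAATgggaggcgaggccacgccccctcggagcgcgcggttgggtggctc
Mcm5: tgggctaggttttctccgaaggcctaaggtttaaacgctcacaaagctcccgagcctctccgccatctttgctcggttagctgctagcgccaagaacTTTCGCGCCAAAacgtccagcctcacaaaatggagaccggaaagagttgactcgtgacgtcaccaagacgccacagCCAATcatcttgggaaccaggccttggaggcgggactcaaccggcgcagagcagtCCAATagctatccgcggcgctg
Mcm6: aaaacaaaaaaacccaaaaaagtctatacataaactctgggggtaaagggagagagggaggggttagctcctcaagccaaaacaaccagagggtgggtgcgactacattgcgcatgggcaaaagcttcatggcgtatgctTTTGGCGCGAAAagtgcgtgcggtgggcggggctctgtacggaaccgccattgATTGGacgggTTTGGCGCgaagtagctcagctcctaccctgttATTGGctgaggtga
In the 250 bases printed, Mcm10 had 2 CCAAT boxes, which begin 98 and 23 bases before the start, and Rrm2 had 1, at 50 bases. Neither had an E2F word, there or in the 50 bases after the start, where Mcm10 had a further CCAAT box, 3 in all. The searched window of Mcm10 ends in TTTGGCG, the beginning of the word TTTGGCGC, so a word across that edge would be missed. In Mcm5, 2 E2F words on opposite strands overlapped at 153 and 149 bases, and in Mcm6 a pair overlapped in the same way at 110 and 106 bases, with another at 47.

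Helicase activation was the role with the lowest summed level relative to control. Its 5 members summed to 21.4 CPM in both IRF2 siRNA libraries, against 38.5 and 35.6 CPM in the controls, which is 57.8% of the control mean, and all 5 had both IRF2 siRNA libraries below both controls. Mcm10 lies on chromosome 2 at 4989714 to 5012791 of mm10, on the minus strand, and its product binds the MCM ring and is needed for origin firing. It had 132 and 158 reads, or 4.98 and 5.80 CPM, in the IRF2 siRNA libraries, and 358 and 471 reads, or 12.3 and 14.5 CPM, in the control libraries. The groups were far apart beside the spread within each, at 5.39 ± 0.576 CPM with IRF2 siRNA and 13.4 ± 1.52 CPM with control siRNA (SD, n = 2 each). The log2 fold change was −1.31 ± 0.17 (SE, edgeR adjusted p = 0.0159). Mcm10 did not pass without the filter on low counts, with an edgeR adjusted p = 0.0637, the highest of 12 alternative fits. The lowest, 8.21e-17, came from edgeR with the replicate number as a block, which was not used for the calls. By the test used for the calls, Mcm10 would not pass a threshold of 0.01.

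The other factors of helicase activation did not pass the test. Cdc45, which completes the active helicase with GINS, was at 3.81 and 3.05 CPM with IRF2 siRNA and 6.23 and 5.78 CPM with control siRNA, a log2 fold change of −0.81 ± 0.19 (SE, edgeR adjusted p = 0.117). Its groups did not overlap. Gins3 was at 4.12 and 3.85 CPM with IRF2 siRNA and 6.96 and 5.84 CPM with control siRNA, with a log2 fold change of −0.68 (edgeR adjusted p = 0.165). Gins1 and Gins2, its partners in the GINS ring, had −0.44 and −0.36, with adjusted p of 0.65 and 0.639 in the edgeR test. For Gins2 the control libraries lay far apart, at 10.1 and 7.19 CPM, with 6.80 and 6.64 CPM in the IRF2 siRNA libraries. Its exons share 67.3% of their bases with Gse1 on the opposite strand, and since the strand setting of the counting is not given, its level is uncertain. Gins4, the remaining GINS subunit, which was not among the members, had −0.16. It was at 29.8 and 28.5 CPM with IRF2 siRNA and 36.1 and 29.1 CPM with control siRNA, with overlapping groups. The summed level of helicase activation, and its rank, are those of the 5 members without Gins4, which with IRF2 siRNA was above their sum.

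The MCM2-7 helicase subunits all lay below control, with log2 fold changes between −0.62 and −0.23. The 6 subunits summed to 173.1 and 166.9 CPM with IRF2 siRNA and 228.8 and 226.8 CPM with control siRNA, 74.6% of control, and for all 6 the groups did not overlap. None passed the test over all genes. Mcm5 had the largest difference, at 22.2 and 21.3 CPM with IRF2 siRNA and 34.2 and 32.7 CPM with control siRNA, a log2 fold change of −0.62 ± 0.12 (SE, edgeR adjusted p = 0.0673). Mcm3 was at 25.3 and 24.6 CPM with IRF2 siRNA and 35.3 and 36.2 CPM with control siRNA, a log2 fold change of −0.52 (edgeR adjusted p = 0.104). Mcm6, the most abundant subunit per length, was at 47.2 and 45.7 CPM with IRF2 siRNA and 65.4 and 63.6 CPM with control siRNA, a log2 fold change of −0.47 (edgeR adjusted p = 0.116). In each of these 3 the libraries of a group were close together and well apart from the other group. Mcm7 had −0.36, Mcm4 −0.27 and Mcm2 −0.23. Mcm2 was nearest to control, at 17.3 and 14.1 CPM with IRF2 siRNA and 19.0 and 17.9 CPM with control siRNA, so that its IRF2 siRNA libraries lay further apart than the difference between the groups. The exons of Mcm7 hold the microRNA genes Mir25 and Mir93 and overlap Cops6 and Ap4m1 on the other strand, over 12.6% of their bases in all.

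**Figure D2:**
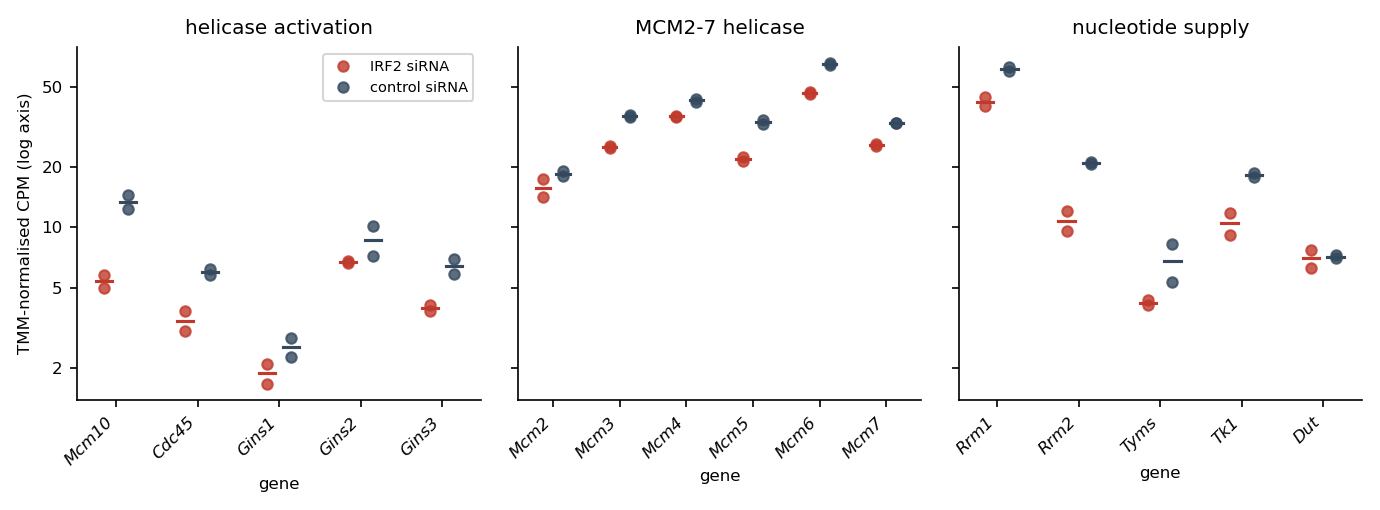
TMM-normalised CPM on a log axis for each member of 3 roles, in the 2 IRF2 siRNA and the 2 control siRNA libraries (points) with the mean of each group (short lines). All 6 MCM2-7 subunits and all 5 activation factors have both IRF2 siRNA points below both control points, and Dut, at 7.74 and 6.24 CPM with IRF2 siRNA and 7.03 and 7.25 CPM with control siRNA, does not.

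Origin recognition and licensing genes differed less. The 4 members summed to 34.4 and 31.3 CPM with IRF2 siRNA and 40.3 and 37.3 CPM with control siRNA, 84.7% of control, and none passed the test. Cdc6, the loader of the MCM ring, was at 4.61 and 3.41 CPM with IRF2 siRNA and 5.61 and 5.44 CPM with control siRNA, a log2 fold change of −0.46 ± 0.20 (SE, edgeR adjusted p = 0.477). Cdt1, which brings the MCM ring to the origin, was at 19.0 and 18.2 CPM with IRF2 siRNA and 21.9 and 20.9 CPM with control siRNA, with a log2 fold change of −0.20. Neither gene had overlapping groups. Orc1, the subunit of the origin recognition complex that varies over the cycle, was scarce, with 40 and 42 reads in the IRF2 siRNA libraries and 33 and 61 reads in the controls. Its log2 fold change was 0.0069 ± 0.31 (SE), and it turned to −0.29 without control replicate 1. Orc6 had −0.25, with overlapping groups.

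Of the polymerase and primase genes, Pole and Pola1 lay furthest below control. They encode the catalytic subunits of the leading strand polymerase epsilon and of polymerase alpha, and were at 55.1% and 63.7% of control, while the remaining 6 members were between 91.2% and 100.6%. Pole was at 6.42 and 6.24 CPM with IRF2 siRNA and 9.64 and 13.3 CPM with control siRNA, a log2 fold change of −0.86 ± 0.20 (SE, edgeR adjusted p = 0.104). Pola1 was at 11.7 and 13.9 CPM with IRF2 siRNA and 16.9 and 23.4 CPM with control siRNA, with a log2 fold change of −0.65 (edgeR adjusted p = 0.223). For both, control replicate 2 stood well above control replicate 1, and the IRF2 siRNA libraries lay below both. Pole2, the partner of Pole, was at 5.48 and 4.95 CPM with IRF2 siRNA and 5.82 and 4.55 CPM with control siRNA, with a log2 fold change of 0.011 ± 0.19 (SE). Pold1, the catalytic subunit of the lagging strand polymerase delta, had −0.11, and its partner Pold2 −0.035. The polymerase alpha subunit Pola2 and the primase subunits Prim1 and Prim2 had −0.12, −0.13 and −0.12. The difference between subunits of 1 enzyme was not tested.

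Of the clamp, clamp loader and single-strand binding genes, Rfc3, Rfc4 and Rfc5 lay below control without overlap, and Pcna, Rfc1, Rfc2, Rpa1 and Rpa3 had overlapping groups. Pcna, the sliding clamp and the most abundant member per length, was at 101.3 and 94.9 CPM with IRF2 siRNA and 118.0 and 100.5 CPM with control siRNA, so the groups overlapped, and its log2 fold change was −0.16 ± 0.13 (SE). Of the clamp loader subunits, Rfc5 had the largest difference, at 13.6 and 11.9 CPM with IRF2 siRNA and 18.2 and 16.7 CPM with control siRNA, a log2 fold change of −0.46 (edgeR adjusted p = 0.259). Rfc3 and Rfc4 had −0.33 and −0.29. The large subunit Rfc1 was at 69.9 and 80.8 CPM with IRF2 siRNA and 69.9 and 85.2 CPM with control siRNA, a log2 fold change of −0.041, and Rfc2 had −0.056. These 2 subunits varied more within a group than between groups. The replication protein A genes, whose product coats single-stranded DNA, summed to 61.2 and 56.7 CPM with IRF2 siRNA and 62.6 and 60.8 CPM with control siRNA, 95.5% of control. Rpa2 was at 11.3 and 10.1 CPM with IRF2 siRNA and 13.3 and 11.3 CPM with control siRNA, a log2 fold change of −0.20, so the groups all but touched, and Rpa3 had −0.11. Rpa1, the subunit that binds DNA most tightly, was at 43.7 and 40.5 CPM with IRF2 siRNA and 41.8 and 43.7 CPM with control siRNA, with −0.023, and its groups overlapped.

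Genes of Okazaki fragment processing were Lig1, the ligase that seals the fragments, and Fen1, the flap endonuclease that trims them. Lig1 was at 24.1 and 19.8 CPM with IRF2 siRNA and 32.3 and 31.6 CPM with control siRNA, a log2 fold change of −0.54 ± 0.14 (SE, edgeR adjusted p = 0.156). Fen1 had 16 and 15 reads in the IRF2 siRNA libraries and 23 and 42 reads in the controls, a log2 fold change of −0.86 ± 0.39 (SE, edgeR adjusted p = 0.506). Its exons share 84.2% of their bases with Gm10143 and Tmem258 on the opposite strand, so its level is uncertain. Exons of 16 members overlap other genes, for 13 of them on the opposite strand only, and apart from Fen1, Gins2 and Chaf1a over at most 17.4% of their bases.

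Nucleotide supply genes were at 65.2% of control together, and 4 of the 5 had both IRF2 siRNA libraries below both controls. Rrm2, the small subunit of ribonucleotide reductase, whose amount peaks in S phase, lies on chromosome 12 at 24708241 to 24714146 on the plus strand. It had 318 and 260 reads, or 12.0 and 9.54 CPM, in the IRF2 siRNA libraries, and 612 and 673 reads, or 21.1 and 20.7 CPM, in the control libraries. The group means were 10.8 ± 1.74 CPM with IRF2 siRNA and 20.9 ± 0.28 CPM with control siRNA (SD, n = 2 each), a log2 fold change of −0.95 ± 0.16 (SE, edgeR adjusted p = 0.035). IRF2 siRNA replicate 2 was the lower of its group, and without it Rrm2 did not pass. It did not pass without the filter on low counts either, with an edgeR adjusted p = 0.112. Its log2 fold change ranged from −1.12 to −0.79 over 12 alternative fits.

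The remaining nucleotide genes did not pass. Tk1, the thymidine salvage kinase of S phase, was at 11.7 and 9.17 CPM with IRF2 siRNA and 17.8 and 18.6 CPM with control siRNA, a log2 fold change of −0.80 (edgeR adjusted p = 0.0745). Rrm1, the large reductase subunit, was at 39.9 and 44.1 CPM with IRF2 siRNA and 62.7 and 59.4 CPM with control siRNA, a log2 fold change of −0.54 (edgeR adjusted p = 0.0972). In both genes the groups stood clearly apart. Tyms, which makes thymidylate, was at 4.08 and 4.33 CPM with IRF2 siRNA and 8.23 and 5.32 CPM with control siRNA, with a log2 fold change of −0.68 ± 0.24 (SE, edgeR adjusted p = 0.336). Its control libraries differed by 0.63 on the log2 scale, nearly as much as the groups. Dut, which clears dUTP, had −0.031 with overlapping groups.

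Among the G1/S control genes, E2f1 and Ccne1 had overlapping groups. E2f1, an activator of S-phase genes, was at 47.2 and 43.4 CPM with IRF2 siRNA and 52.0 and 43.8 CPM with control siRNA, a log2 fold change of −0.081 ± 0.14 (SE). Ccne1, the cyclin E that drives S-phase entry, was at 3.4 and 4.15 CPM with IRF2 siRNA and 3.75 and 3.23 CPM with control siRNA, and its log2 fold change of 0.12 was the highest of all members. Ccne2, the second cyclin E, was at 3.10 and 3.23 CPM with IRF2 siRNA and 3.51 and 6.27 CPM with control siRNA, a log2 fold change of −0.64 (edgeR adjusted p = 0.517). Control replicate 2 stood apart for Ccne2, and the other control library lay close to the IRF2 siRNA libraries.

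Of the chromatin genes that act behind the fork, Uhrf1 was just short of the threshold. Uhrf1, which brings the maintenance DNA methyltransferase to newly copied DNA, was at 12.0 and 11.5 CPM with IRF2 siRNA and 19.3 CPM in both control libraries, a log2 fold change of −0.71 ± 0.13 (SE, edgeR adjusted p = 0.0543). It passed with a filter at 1 CPM, with DESeq2 and with the replicate number as a block, which was not used for the calls. Uhrf1 did not pass with limma-voom, legacy = TRUE, the other scalings or no filter. Fits that leave a group with 1 library are not counted here. Chaf1a and Chaf1b, subunits of the histone chaperone CAF-1, both had a log2 fold change of −0.24. Chaf1a was at 7.36 and 7.96 CPM with IRF2 siRNA and 8.30 and 9.83 CPM with control siRNA, and Chaf1b at 7.93 and 7.96 CPM with IRF2 siRNA and 9.23 and 9.50 CPM with control siRNA. The groups of both were close but did not overlap. The exons of Chaf1a share 52.5% of their bases with Ubxn6 on the opposite strand.

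**Figure D3:**
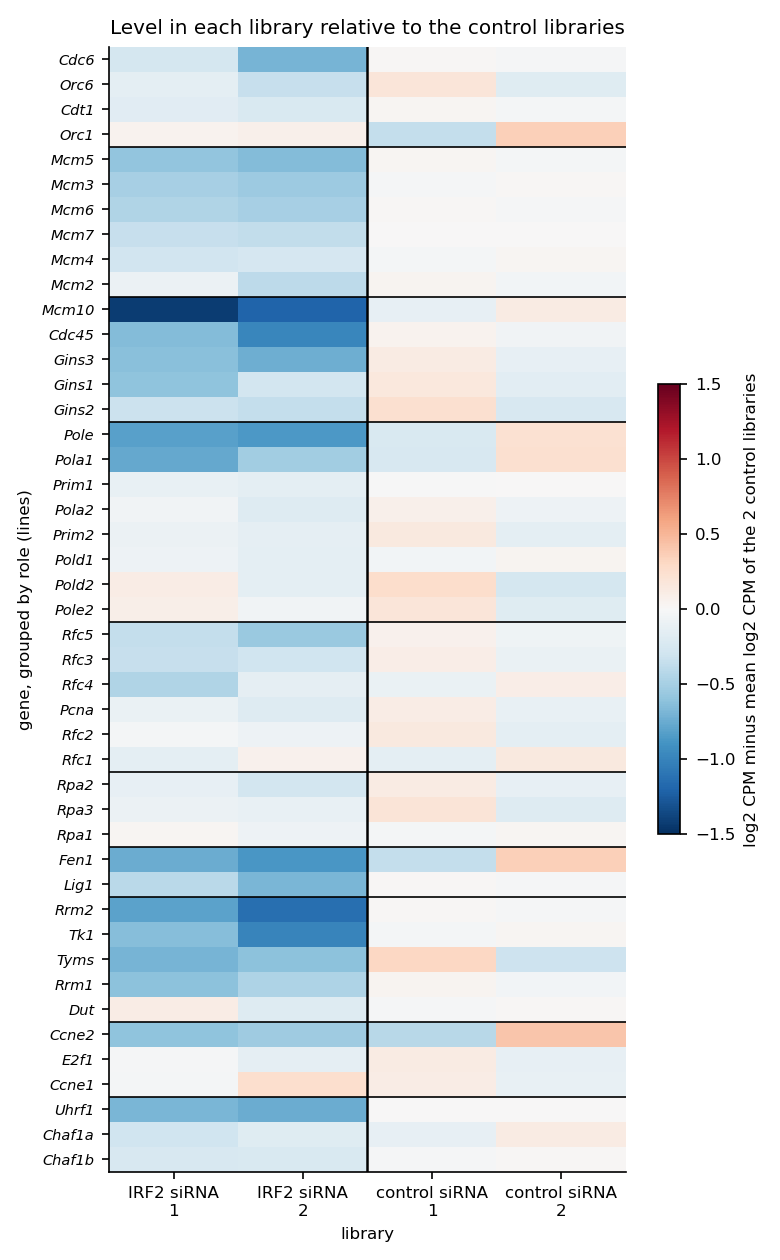
Log2 CPM of each member in each library minus the mean log2 CPM of the 2 control libraries (colour, blue below and red above), with members in rows by role and the IRF2 siRNA libraries in the 2 left columns. The MCM2-7, activation and nucleotide rows are blue in both IRF2 siRNA columns except Dut, and several rows, among them Ccne2, Fen1 and Tyms, differ between the control columns.

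Levels per length differed widely among members in both groups. Expressed as mean CPM per kb of merged exons, Pcna was highest, at 40.9 with IRF2 siRNA and 45.5 with control siRNA, followed by E2f1 at 14.4 and 15.2. Fen1 and Orc1 were lowest, with Fen1 at 0.238 with IRF2 siRNA and 0.43 with control siRNA and Orc1 at 0.439 and 0.433. The MCM2-7 subunits, which form a ring with 1 copy of each, had levels from 2.26 for Mcm2 to 9.95 for Mcm6 with IRF2 siRNA and from 2.65 for Mcm2 to 13.8 for Mcm6 with control siRNA. Mcm6 and Mcm4 were nearly level with IRF2 siRNA, at 9.95 and 9.90, and stood at 13.8 and 11.9 with control siRNA. The 5 activation factors among the members had levels between 0.701 for Mcm10 and 1.64 for Gins2 with IRF2 siRNA, and between 1.68 for Gins1 and 2.36 for Gins3 with control siRNA. Mcm10 was the lowest of these 5 with IRF2 siRNA and the middle one with control siRNA. Gins4, which is no member, was above every MCM2-7 subunit, at 21.6 with IRF2 siRNA and 24.2 with control siRNA. Merged exons include those of rare transcripts, so lengths, and with them the order, are approximate. Fen1, Gins2 and Chaf1a also share most of their exon bases with other genes, so their places in the order are uncertain.

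**Figure D4:**
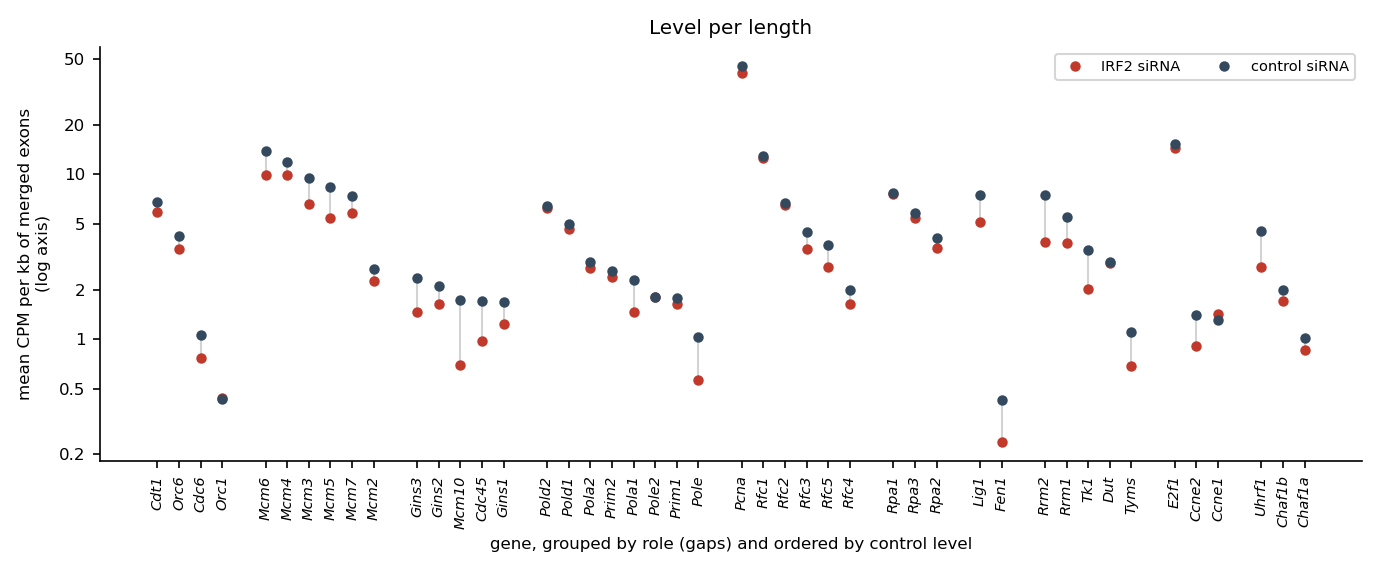
Mean CPM per kb of merged exons on a log axis for each member with IRF2 siRNA and with control siRNA, n = 2 libraries each, grouped by role. The Pcna points are the highest, at 40.9 and 45.5, and the widest gap between groups is that of Mcm10, at 0.701 with IRF2 siRNA and 1.74 with control siRNA.

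Other genes of replication, not among the members, mostly had small differences. Of 35 further replisome and origin genes, 1 fell and none rose, with a median log2 fold change of −0.13. For 12 of them both IRF2 siRNA libraries lay below both controls, and for 3 above both, against 19.4% and 19% of all genes. The gene that fell was Timeless, part of the fork protection complex, at 4.64 and 4.62 CPM with IRF2 siRNA and 11 and 11.1 CPM with control siRNA, with an edgeR adjusted p = 0.0141. Of 18 further nucleotide genes, 1 rose and none fell, with a median of 0.031. That gene was Samhd1, an interferon-inducible enzyme that degrades dNTPs, at 1793 and 1906 CPM with IRF2 siRNA and 1049 and 1166 CPM with control siRNA, a log2 fold change of 0.74 (edgeR adjusted p = 0.0399). It was above the controls in both IRF2 siRNA libraries, while its counterpart in dNTP synthesis, Rrm2, was below them. Leaving out IRF2 siRNA replicate 1 or 2 left Samhd1 short of the threshold, at an adjusted p of 0.251 or 0.475 by edgeR.

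None of 12 further S-phase chromatin genes passed, with a median of −0.13. The histone chaperones Asf1b and Nap1l1 had the smallest p in that list. Asf1b was at 8.38 and 8.92 CPM with IRF2 siRNA and 15.8 and 14.1 CPM with control siRNA (edgeR adjusted p = 0.0568), and Nap1l1 at 168.0 and 181.8 CPM with IRF2 siRNA and 261.4 and 224.5 CPM with control siRNA (edgeR adjusted p = 0.161). Of 30 G1/S regulators tested, 2 fell and none rose, with a median of −0.081. Foxm1, a transcription factor of late cell cycle genes, was at 10.3 and 10.2 CPM with IRF2 siRNA and 20.1 and 24.5 CPM with control siRNA (edgeR adjusted p = 0.0181). Cdkn2c, which encodes the CDK4 and CDK6 inhibitor p18, was at 22.1 and 21.9 CPM with IRF2 siRNA and 43.4 and 37.8 CPM with control siRNA (edgeR adjusted p = 0.0232), and missed the threshold without IRF2 siRNA replicate 1 or 2, at 0.0821 and 0.082. An inhibitor of entry to S phase and an activator of mitotic genes were both among the regulators that fell. Without the filter on low counts, Samhd1, Cdkn2c and Foxm1 missed the threshold, with edgeR adjusted p-values of 0.0846 for Samhd1, 0.0795 for Cdkn2c and 0.0682 for Foxm1.

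The genes of G2 and mitosis had a lower median than the replication genes. Of 34 in that list, 22 fell and none rose, all 34 had both IRF2 siRNA libraries below both controls, and the median log2 fold change was −1.11, beside −0.29 for the replication genes. Ccna2, the cyclin A of dividing somatic cells, was at 13.3 and 13.6 CPM with IRF2 siRNA and 38.6 and 35.1 CPM with control siRNA (edgeR adjusted p = 0.00632). Nusap1, Dlgap5 and Ncapd2, which act on the spindle and on mitotic chromosomes, had log2 fold changes of −1.40, −1.35 and −1.11. Of the 45 replication genes, Mcm10 alone lay below the G2 and mitosis median. The difference between the 2 lists was not tested.

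**Figure D5:**
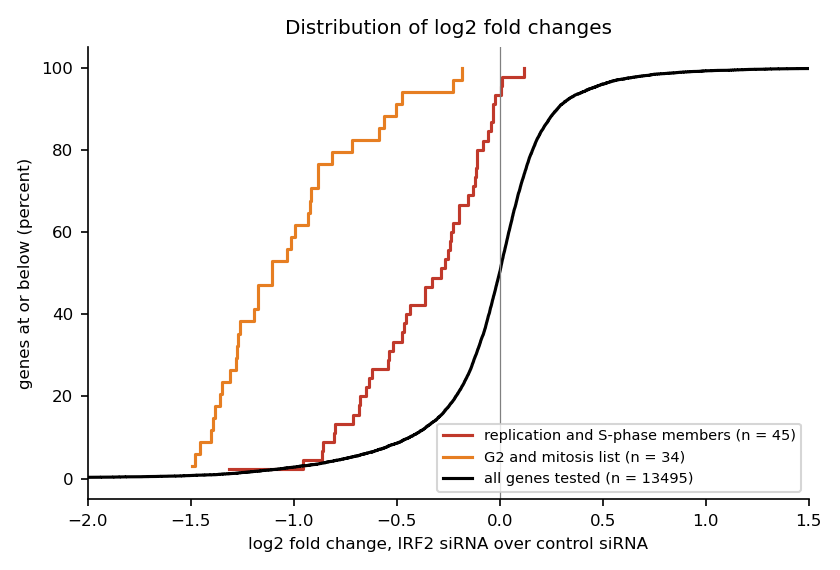
Share of genes (y axis, percent) at or below each log2 fold change of IRF2 siRNA over control siRNA (x axis) for the 45 replication members, the 34 genes of the G2 and mitosis list and all 13495 genes tested. The member curve lies left of that of all genes through most of its range, with medians of −0.29 and −0.0015, and the G2 and mitosis curve lies further left, with a median of −1.11.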

How the data were processed

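Raw read counts per gene in 4 libraries were deposited by the authors as whole numbers, with no normalization. Per the submitters' processing notes, bcl2fastq 2.18.0.12, STAR 2.5.2b, HTSeq 0.6.0, DESeq2 and the build mm10 were used. For the annotation release and the strand setting, the sources used here give nothing. The 5 summary rows of the table were left out; they held 5.07 to 6.85% of reads in no gene, 4.17 to 4.71% ambiguous and 12.5 to 15% aligned to several places. Symbols (48349 of 48795 genes), coordinates and merged exon lengths were taken from the GRCm38 annotation GENCODE M21 (mm10 is the same assembly), and promoter sequences from RefSeq.

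The count model was edgeR 4.0.16 in R 4.3.3: filterByExpr with a minimum count of 10 and a minimum total of 15, TMM scaling, estimateDisp, glmQLFit with legacy = FALSE and glmQLFTest on the siRNA group, with Benjamini-Hochberg adjustment over 13495 genes. The biological coefficient of variation was 12.6%. Standard errors are the absolute log2 fold change over the square root of F. The fit was tested on simulated data with the same spread in both groups and no link between same-numbered libraries. The simulation therefore does not cover the unequal spread and the shared deviations of the real libraries. Chi-square per degree of freedom between replicates was 9.32 with IRF2 siRNA and 46.2 with control siRNA, so no library was a copy. Alternatives were other scalings, filters and tests (DESeq2 1.42.0, limma-voom in limma 3.58.1), a threshold of 0.01, the replicate number as a block, and leaving out each library. Members and lists were chosen with earlier results of these data known. Per-library values are printed for called members, for the lowest and highest member of each role with none called and for further members chosen after their values were seen; outside the members, genes were named as the called genes with the smallest p in each list, up to 4, or the 2 with the smallest p. Gins4 was named after its value was seen. The list of checkpoint and repair genes is not reported here.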

Additional observations from a re-analysis of the deposited data

How the results depend on the processing

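Of 241 genes called, 72 were left without a filter and 50 at an adjusted p under 0.01, against 427 with DESeq2, 1521 with the replicate block, and 237 to 1770 when a library was left out. Of 2 members called, none was left without a filter (adjusted p-values of 0.0637 and 0.112) or at 0.01, against 3 with a filter at 1 CPM, which adds Uhrf1, 7 with DESeq2, 17 with the replicate block (Mcm3, Mcm5, Mcm6 and Mcm7 among them, where 7.54% of all genes fell), and 1 to 15 when a library was left out. The highest counts in leave-one-out fits came without a control library; the cause was not tested. The edgeR count at an unadjusted p under 0.05 was 16. Same-numbered libraries deviated together (r = 0.373 across genes), but the labels name no pairing and there are only 2 numbers, so the block was not used for the calls. The members' median ranged from −0.31 to −0.29 without 1 library and was −0.26 with library size alone. Members with a cell cycle homology word numbered 4 within 150 bases before the start. Among members near 0, the sign of 11 turned when a library was left out: Orc1 ranged from −0.29 to 0.42 (−0.0014 without IRF2 siRNA replicate 2), Prim2 from −0.26 to 0.035, Pold2 from −0.27 to 0.25 (0.10 without IRF2 siRNA replicate 2), Pole2 from −0.16 to 0.20 (−0.055 without IRF2 siRNA replicate 1), Rfc1 from −0.17 to 0.11 (0.067 without IRF2 siRNA replicate 1), Rfc2 from −0.19 to 0.10, Rpa1 from −0.073 to 0.035, Rpa3 from −0.29 to 0.091, Dut from −0.19 to 0.12, Ccne1 from −0.033 to 0.26 and E2f1 from −0.20 to 0.052. Library size alone put Rpa1 at 0.0019. With 2 libraries a group, no exact permutation test could give a two-sided p below 0.333. In a fit that leaves a group with 1 library, that library is assumed to vary like the other group.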
